A study of Mus musculus and Homo sapiens with 40 samples.

Results

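Chromatin marks and CEBPA sites were examined at the loci of 10 inflammatory cytokine genes, out of 21757 protein-coding genes, in mouse HPC-7 cells. The genes were *Tnf*, *Il1a*, *Il1b*, *Il1rn*, *Il6*, *Il10*, *Il12b*, *Csf1*, *Csf3* and *Ptgs2*, chosen by name. A locus was the gene body with 50 kb on either side in GRCm39 (mm39), and a peak was counted when its summit fell inside. HPC-7 cells are a line of mouse blood progenitors that express very little CEBPA of their own. Both lines carried a transduced CEBPA fused to the estrogen receptor domain ERT2, either full-length p42 or the N-terminally truncated p30, which enters the nucleus once 4-hydroxytamoxifen is added, an agent that the sample labels do not name. The fusions are known to be slightly active without it. Lists of H3K27ac peaks came from p42- and p30-expressing cells, untreated or with 100 ng/mL lipopolysaccharide (LPS) for 2 h, each called on 3 pooled samples. H3K4me1 lists (2 pooled samples each) and lists of anti-CEBPA and anti-ER peaks (1 library each) came from untreated cells of both lines. The labels of the anti-CEBPA libraries name no treatment, and these were taken as untreated. Anti-ER binds the ERT2 part and so reads the fusion protein only. Because each group is represented by a single list, no difference below has a replicate check, no test was made, and all values are descriptions. An H3K27ac peak present in more cells and one with more mark per cell cannot be told apart, and no transcript was measured. Promoters of 7 of 8 genes that mark blood progenitors (*Kit*, *Cd34*, *Tal1*, *Runx1*, *Lyl1*, *Spi1* and *Ptprc*) carried H3K27ac in all 4 lists, *Gata2* had no peak at its annotated start, and none of 6 genes of other cell types did.

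LPS is sensed by TLR4, which activates NF-kB and AP-1 and turns on cytokine genes within hours. H3K27ac marks active promoters and enhancers, and H3K4me1 marks enhancers whether or not they are active. CEBPA, a myeloid transcription factor, binds palindromic sites and is known to take part in preparing enhancers of inflammatory genes. *Tnf*, *Il1a*, *Il1b* and *Il6* encode early pro-inflammatory cytokines, *Il12b* the shared subunit of IL-12 and IL-23, and *Il10* an anti-inflammatory cytokine. *Il1rn* encodes the antagonist of the IL-1 receptor, *Csf1* and *Csf3* the growth factors of macrophages and granulocytes, and *Ptgs2* the inducible cyclooxygenase of prostaglandin synthesis.

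The 10 loci were 102370 to 119443 bp long, with a median of 119173 bp over all protein-coding loci. The loci of *Il1a* and *Il1b* shared 45609 bp, and peaks there were counted once in totals. *Il1b*, *Il6*, *Il10*, *Il12b* and *Ptgs2* had no other protein-coding start within their loci. The *Tnf* locus held 9 others, including *Lta*, *Ltb* and *Lst1*, the *Csf3* locus 4, the *Il1rn* locus 2, and the *Il1a* and *Csf1* loci 1 each. A peak in these crowded loci may belong to a neighbor, and the nearest gene is therefore given where it is not the cytokine gene.

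Untreated cells carried H3K27ac in every cytokine locus, as they did in most protein-coding loci (16694 of 21757 in p42 cells and 16684 in p30 cells). The p42 list held 159 peaks in the 10 loci untreated and 167 with LPS, and the p30 list held 130 untreated and 173 with LPS. The number per locus ranged from 4 to 32 in untreated p42 cells (median 16, against 11 over all protein-coding loci) and from 1 to 31 in untreated p30 cells (median 12, against 12). With LPS it ranged from 6 to 31 in p42 cells (median 18, against 9) and from 4 to 33 in p30 cells (median 16.5, against 12). The *Il1b* locus was the sparsest in untreated p30 cells, with 1 peak where p42 cells had 9.

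**Figure D1:**
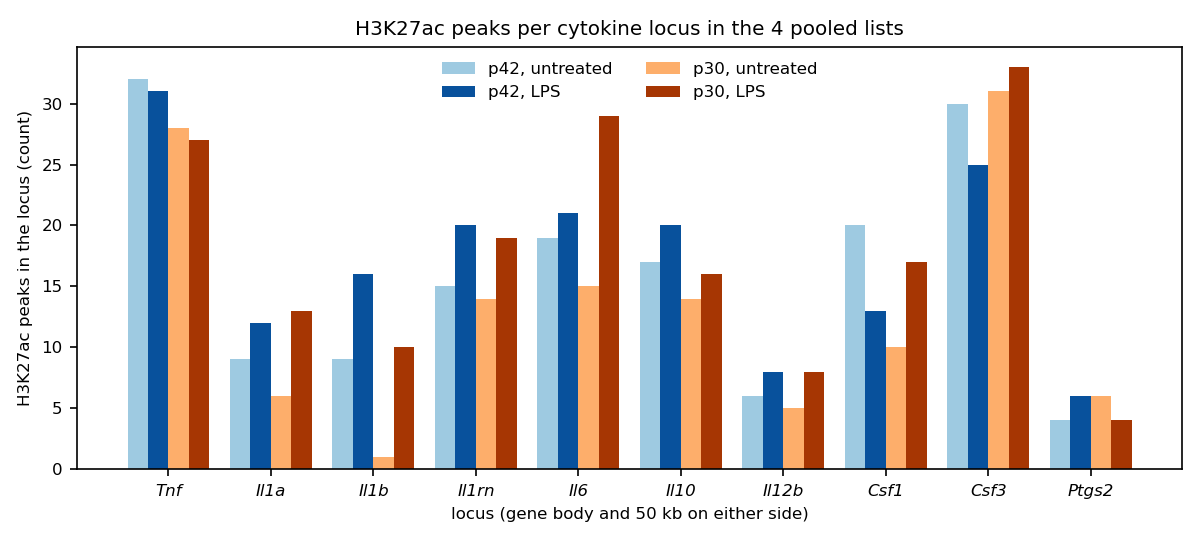
Number of H3K27ac peaks (vertical axis, count) in each cytokine locus (horizontal axis) in the 4 pooled lists, 1 bar per list and no error because replicates were pooled. At Il1b the count went from 9 to 16 with LPS in p42 cells and from 1 to 10 in p30 cells, whereas at Csf1 it went from 20 to 13 in p42 cells and from 10 to 17 in p30 cells.

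Covered sequence, the bases of a locus lying under H3K27ac peaks, was larger with LPS at most of these loci. In p42 cells it was larger with LPS at 7 of the 10 loci (*Tnf*, *Il1a*, *Il1b*, *Il6*, *Il10*, *Il12b* and *Ptgs2*), whereas 15.9% of protein-coding loci with untreated H3K27ac gained. In p30 cells it was larger at 10 of 10 loci, against 47.4% of all loci, and 7 loci gained in both lines, against 12.0%. The median ratio of LPS to untreated was 1.23 in p42 cells and 1.26 in p30 cells, whereas over all loci it was 0.835 and 0.991. For covered sequence with LPS, all loci means protein-coding loci with H3K27ac in untreated cells of the line. These numbered 16694 in p42 cells, 16684 in p30 cells and 16472 for both lines. The H3K27ac list of p42 cells had fewer peaks with LPS (107141) than untreated (129369), and that of p30 cells slightly more (142419 against 139210). More peaks with LPS were counted in both lines at 6 loci (*Il1a*, *Il1b*, *Il1rn*, *Il6*, *Il10* and *Il12b*), against 9.85% of all 21757 protein-coding loci.

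With the full lists and 50 kb flanks, the *Il1b* locus had the highest ratio in both lines. Its covered sequence went from 4028 to 8873 bp in p42 cells, a ratio of 2.2 that was above that of 99.7% of protein-coding loci, and from 1509 to 4462 bp in p30 cells, a ratio of 2.96 that was also above that of 99.7%. At least 1.5 times more sequence was covered with LPS at 2 loci in p42 cells, *Il1b* and *Il1a* (1.93), against 1.31% of all loci. In p30 cells 3 loci passed this fold, *Il1b*, *Il12b* (2.11) and *Il1a* (1.54), against 4.11% of all loci. At *Il6* the ratio was 1.29 in p42 cells and 1.49 in p30 cells. The 3 loci that did not gain in p42 cells were *Il1rn* (0.923), *Csf1* (0.968) and *Csf3* (0.902), where p30 cells had 1.21, 1.31 and 1.03. The *Csf1* ratio in p42 cells turned to 1.15 with the same number of strongest peaks from each list and to 1.22 with q-values under 1e-05, and the *Il1rn* ratio to 1.6 with flanks of 10 kb. The lead of *Il1b* depended on the settings. With q-values under 1e-05 *Il1a* exceeded it in p42 cells (2.49 against 2.41) and *Il12b* in p30 cells (4.24 against 2.35). With equal numbers of peaks *Il12b* exceeded it in p30 cells (3.29 against 2.62). With flanks of 10 kb p42 cells had 1.45 at *Il1b* and 3.27 at *Il12b*.

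**Figure D2:**
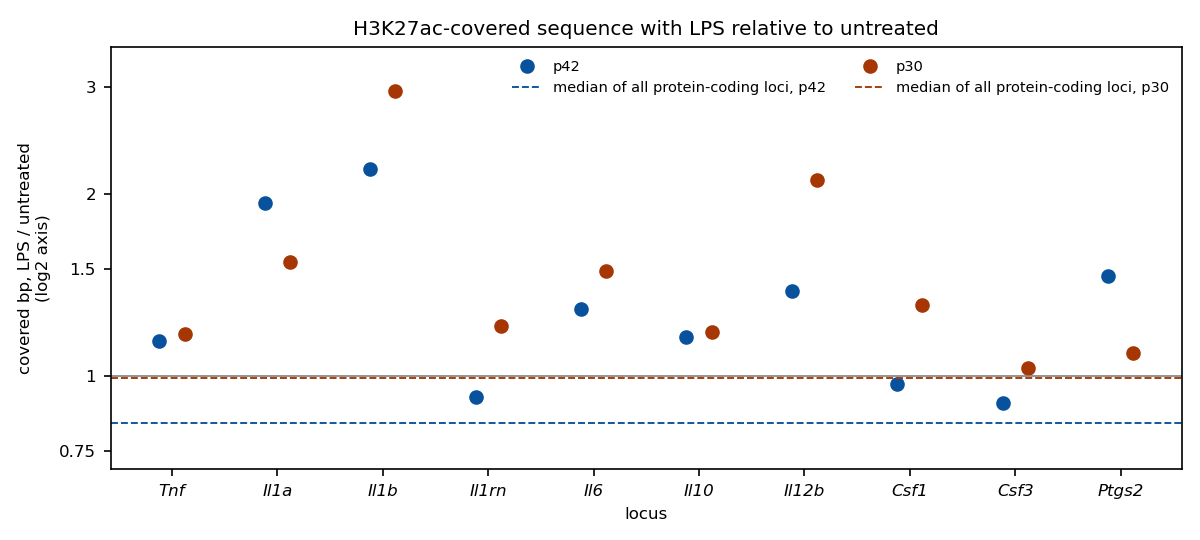
Ratio of H3K27ac-covered sequence with LPS to untreated (vertical axis, log2 scale) at each cytokine locus in p42 (blue) and p30 (brown) cells, 1 pooled list per condition. Dashed lines lie at the median of protein-coding loci with untreated H3K27ac (0.835 in p42 and 0.991 in p30). Il1b lies highest in both lines (2.2 and 2.96), and only Il1rn, Csf1 and Csf3 in p42 cells lie under 1.

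Between the lines, untreated p30 cells had less covered sequence than p42 cells at 7 of 10 loci, against 43.8% of the 16906 protein-coding loci compared. With LPS this held at 6 loci (*Il1a*, *Il1b*, *Il10*, *Il12b*, *Csf1* and *Ptgs2*), against 17.2% of the 16941 loci compared. Flanks of 10 kb reversed it at *Il10* (1594 bp in p30 and 1349 bp in p42), *Il12b* (1232 and 1195) and *Csf1* (2132 and 1277). With those flanks p30 cells covered less at *Il6* (3536 and 5350 bp). In untreated cells the lowest ratios of p30 to p42 were at *Il1b* (0.375) and *Il12b* (0.512). With LPS *Il1b* was again the lowest (0.503), followed by *Il1a* (0.74), *Ptgs2* (0.778) and *Il12b* (0.781). *Tnf* was covered slightly more in p30 cells in both states (1.1 and 1.14). The median ratio over the 10 loci was 0.942 untreated and 0.984 with LPS, whereas over all loci with H3K27ac in p42 cells it was 1.02 and 1.22.

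Merging the 4 H3K27ac lists gave 194 regions in the 10 loci. Of these, 73 were present in all 4 lists. LPS added 38 regions in p42 cells and 56 in p30 cells, and 14 of them in both lines. Across the genome it added 15606 regions in p42 cells and 34964 in p30 cells, and 3034 of them in both lines. With the same number of strongest peaks taken from each list the lines were closer in the 10 loci, at 45 and 49. Gained regions made up 29.7% of the regions present with LPS in p42 cells and 38.9% in p30 cells, whereas across the genome they made up 18.7% and 29.2%. Lost regions were 21 of the 111 present in untreated p42 cells (18.9%, against 37.9% across the genome) and 13 of 101 in p30 cells (12.9%, against 29.3%). Most gained regions were weak, with a median list position of 77.7% in p42 cells and 59.8% in p30 cells. List position is the rank by p-value as a percentage of the list, so that 0 is the strongest end. At least 1 region gained in both lines was found at 9 loci, all but *Csf3*, against 22.9% of protein-coding loci.

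*Il1b* lies on chromosome 2 (chr2:129206490-129213059, minus strand), with *Il1a* downstream of it (chr2:129140291-129152098, minus strand). In all 4 H3K27ac lists the strongest peak of the *Il1b* locus lay upstream of the gene, with its summit near −2624 bp from the start. Its list position was 12.3% in untreated p42 cells and 13.6% with LPS, and 12.9% in untreated p30 cells and 8.91% with LPS. In untreated p30 cells this was the only H3K27ac peak of the locus. Further regions of untreated p42 cells included +10579 bp (21.4%), −42793 bp (46.7%) and −39166 bp (79.3%). With LPS, regions appeared in both lines at −9622 bp (32.1% in p42 and 24.2% in p30) and close to the start, at −229 bp (42% and 82.7%). In the latter the p42 peak covered the start, whereas the p30 peak had its summit at −411 bp and did not reach it. The region at −42793 bp appeared in p30 cells (39.5%), whereas −39770 bp (27.2%) was gained in p42 cells and was absent in p30 cells. The regions at +10579 and −39166 bp had no p30 peak in either state.

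CEBPA sites lay inside the upstream element and at the *Il1b* promoter. The site at −2234 bp was found in all 4 CEBPA lists, with anti-CEBPA ranks of 12690 (p42) and 10706 (p30) and anti-ER ranks of 11141 and 5476, and lay in H3K27ac and H3K4me1 peaks of both lines. Its summit fell in an exon of the antisense transcript gene *Il1bos*. The promoter site at −86 bp was also in all 4 lists (list positions 51.8, 40.8, 57.1 and 38.0%), and its summit was covered by H3K27ac only in p42 cells with LPS. At −39434 bp a site ranked at 29.9% (anti-CEBPA) and 28.2% (anti-ER) in p42 cells, whereas p30 cells had it with anti-ER alone (69.2%). It lay between the regions at −39770 and −39166 bp, both of which had H3K27ac in p42 cells with LPS and no p30 peak.

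At *Il1a*, which had no promoter H3K27ac in any list, H3K27ac upstream of the gene appeared with LPS. The nearest region, at −1893 bp, was weak and gained in p42 cells only (95.7%). The region at −4381 bp was absent untreated in both lines and reached 28.9% in p42 cells and 58% in p30 cells. The region at −6114 bp likewise reached 25% in p42 cells but 93.4% in p30 cells, and −9742 bp (35.4%) was gained in p42 cells only. The strongest peak of the locus, near +13138 bp, was closest to *Ckap2l*, as was the best-ranked region gained in p30 cells, at +51618 bp (25.8%). In p42 cells the best-ranked anti-CEBPA site lay in the gene at +831 bp (rank 18134). A CEBPA site at −3930 bp ranked 1712 of 34006 anti-ER peaks and 5649 of 31851 anti-CEBPA peaks in p30 cells, and 3877 and 21273 in p42 cells, so it stood higher in the p30 lists with both antibodies. The sequences around the −3930 bp site of *Il1a* (chr2:129155988-129156068) and the −2234 bp site of *Il1b* (chr2:129215253-129215333) are shown on the minus strand of GRCm39, 40 bases either side of the strongest summit, because both sites were found in all 4 lists. The *Il1a* site lay beside the region at −4381 bp, gained in both lines, and the *Il1b* site in a region present in both states of both lines. Capitals mark a CEBP motif in each and, near the end of the *Il1a* sequence, a PU.1 motif.
Il1a −3930: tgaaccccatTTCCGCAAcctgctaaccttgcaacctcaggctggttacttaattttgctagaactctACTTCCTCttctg
Il1b −2234: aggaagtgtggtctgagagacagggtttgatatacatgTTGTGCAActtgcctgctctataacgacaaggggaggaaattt

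**Figure D3:**
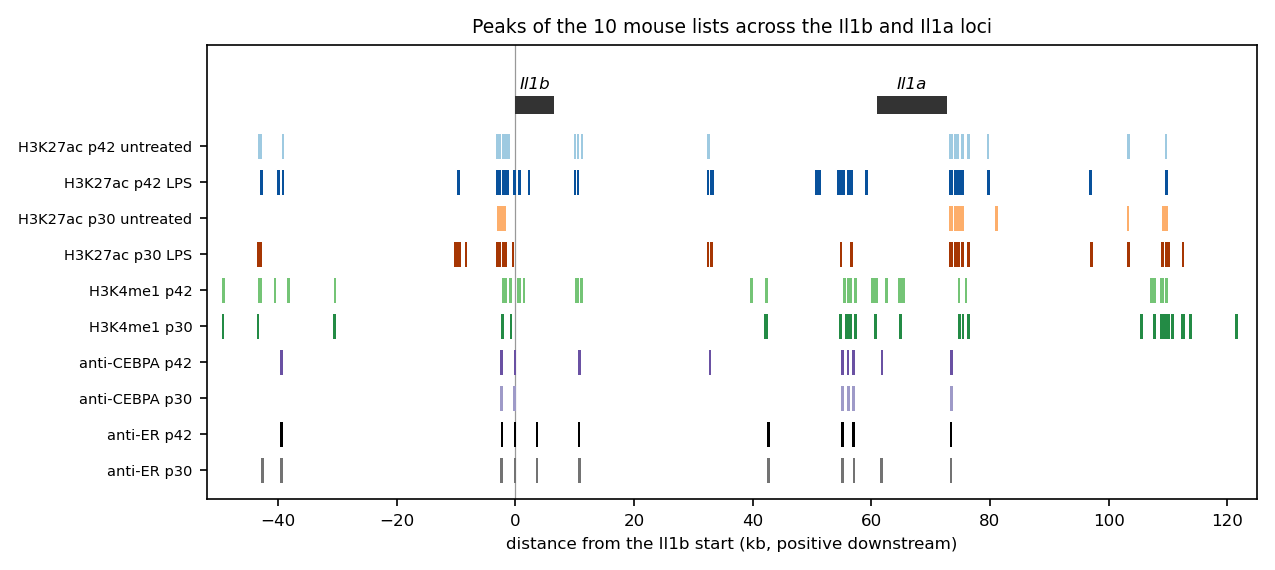
Peaks of the 10 mouse lists (rows) across the Il1b and Il1a loci, by distance from the Il1b start in kb (horizontal axis, positive downstream), with each box 1 peak (narrow peaks widened to stay visible) and gray boxes for the genes. In untreated p30 cells a single H3K27ac peak lies in the Il1b locus, beside the CEBPA site at −2234 bp, and both LPS rows hold peaks upstream that the untreated p30 row does not.

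*Il1rn* (chr2:24226865-24241506, plus strand) had its strongest CEBPA site inside the gene. The site at +8410 bp ranked 2798 of 47517 and 2158 of 31851 in the anti-CEBPA lists of p42 and p30 cells, and 1307 of 23248 and 1442 of 34006 in the anti-ER lists. It lay −25 bp from the start of a shorter coding transcript of *Il1rn*, in an intron of the longer one, and its summit was in H3K27ac of p42 cells in both states and of p30 cells in neither. H3K27ac at this internal start (+8592 bp) was at 21.9% of the list in untreated p42 cells and 20.6% with LPS, was absent in untreated p30 cells and reached 29.0% in p30 cells with LPS. The promoter window of the outer start met H3K27ac only in p30 cells with LPS (48.2%). That peak had its summit at −1493 bp and did not reach the start. The best-ranked region gained in p42 cells, at −30454 bp (69.1%), was nearest to *Il1f10*. The strongest H3K27ac peak of the locus, at +48777 bp in untreated p42 cells, was nearest to *Psd4*.

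*Tnf* (chr17:35418357-35420983, minus strand) was the most densely marked locus. H3K27ac covered 69269 and 78794 bp in p42 cells untreated and with LPS, and 76371 and 89577 bp in p30 cells, but only 1 or 2 of the 27 to 32 peaks in each list were nearest to *Tnf* itself. The peak over the *Tnf* promoter ranked 1885 untreated and 1786 with LPS in p42 cells, and 1950 and 1403 in p30 cells. All 4 values lay within the strongest 1.67% of their lists. The peak widened with LPS, from 4181 to 5652 bp in p42 cells and from 4540 to 8721 bp in p30 cells. In p30 cells with LPS the wider peak reached the start of *Lta*, the lymphotoxin gene next to *Tnf*, whose promoter position went from 21.5% to 0.985%, compared with 65.3% to 19.7% in p42 cells. The best-ranked regions gained with LPS were −36650 bp in p42 cells (60.9%), nearest to *Ddx39b*, and −11488 bp in p30 cells (31.3%), nearest to *Lta*. The locus held 12 CEBPA sites, of which −262 bp at the promoter was found with anti-CEBPA only (74.6% in p42 and 40.1% in p30). The best-ranked site was at −17680 bp, nearest to *Atp6v1g2*, with anti-CEBPA ranks of 3816 (p42) and 3490 (p30) and anti-ER ranks of 2934 and 1728. A site at −24443 bp was found with both antibodies in p42 cells and neither in p30 cells, and one at −39572 bp showed the reverse.

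At *Il6* (chr5:30218112-30224979, plus strand) the promoter mark moved up the list with LPS in both lines. Its peak went from rank 17893 (13.8% of the list) to rank 9666 (9.02%) in p42 cells, while its width went from 1181 to 3698 bp and its fold over local background from 10.2 to 19.8. In p30 cells it went from rank 25002 (18.0%) to 13148 (9.23%), its width from 939 to 1205 bp and its fold from 6.3 to 15.3. In p42 cells with LPS the wider peak took in the stretch where 4 separate untreated peaks had their summits, at −527, +397, +1437 and +2457 bp. In p30 cells the peaks over the same stretch stayed separate with LPS (−545, +319, +1533 and +2494 bp). The number of peaks in the *Il6* locus went from 15 to 29 in p30 cells and from 19 to 21 in p42 cells. The regions at −18053 bp (39.5%) and −37467 bp (48.8%) appeared in p30 cells with LPS and were absent in p42 cells, and −3844 bp appeared in both (83.5% in p42 and 30.3% in p30). The best-ranked gained regions were +5558 bp in p42 cells (47.9%), present in untreated p30 cells, and +24015 bp in p30 cells (26.8%), lost in p42 cells.

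CEBPA sites at *Il6* clustered at the gene and downstream. The promoter site at −133 bp ranked 8349 with anti-CEBPA in p42 cells, 11756 with anti-CEBPA in p30 cells and 13504 with anti-ER in p30 cells, and had no anti-ER peak in p42 cells. Sites at +1725 bp (in a coding exon), +5215 bp, +34616 bp and +44106 bp were found in all 4 lists. The site at −40077 bp was found with both antibodies in p42 cells (51.8 and 88.3%) and with neither in p30 cells. The best-ranked site in both anti-CEBPA lists was +34616 bp (ranks 6435 and 4172), closer to *Tyms* and inside H3K27ac in all 4 lists. The promoter sequence is given in full for 200 bp before the start (chr5:30217912-30218111), since the site with the p42 and p30 anti-CEBPA peaks falls in it. Capitals mark the CEBP motif, first base at −128, and the NF-kB motif, first base at −44. In the +1725 bp (chr5:30219797-30219877) and +34616 bp (chr5:30252688-30252768) sites, also on the plus strand, the same 8 letters recur.
Il6 promoter: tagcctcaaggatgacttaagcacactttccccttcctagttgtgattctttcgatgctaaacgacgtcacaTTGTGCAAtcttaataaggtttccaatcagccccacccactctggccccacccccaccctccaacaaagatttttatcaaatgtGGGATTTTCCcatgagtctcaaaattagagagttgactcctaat
Il6 +1725: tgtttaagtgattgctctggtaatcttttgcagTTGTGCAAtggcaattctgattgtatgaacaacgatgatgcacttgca
Il6 +34616: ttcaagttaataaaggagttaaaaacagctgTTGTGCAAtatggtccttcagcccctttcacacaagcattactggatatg
Within 200 bp before their starts, 7.86% of all 21757 protein-coding genes had a CEBP motif and 5.86% an NF-kB motif.

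At *Il12b* (chr11:44290808-44305505, plus strand) the H3K27ac regions gained with LPS lay upstream of the gene, and a weak region at +47302 bp, nearest to *Ublcp1*, was lost in p30 cells (78.5% untreated). No list had H3K27ac at the promoter. The region at −9603 bp went from 40.2% to 12.2% of the list in p42 cells, with its fold over background from 3.77 to 14.3, and was absent in untreated p30 cells but at 17.6% with LPS, with a fold of 6.61. It was the strongest H3K27ac peak of the locus in p42 cells with LPS. The neighboring region at −10099 bp was gained in both lines (52.5% and 57.3%). Further upstream, −19469 bp was present in p42 cells in both states (21.0% and 22.6%) and was gained in p30 cells (39.5%), and −4235 bp was gained in p30 cells only (58%). In all, H3K27ac covered 4052 bp in untreated p42 cells and 5597 bp with LPS, and 2076 and 4370 bp in p30 cells.

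A CEBPA site at −9788 bp, beside the −9603 bp summit, was found in all 4 lists, and its own summit lay in H3K27ac only in p42 cells with LPS. Its list positions were 30.9% (p42) and 90.3% (p30) for anti-CEBPA, compared with 48.1% and 51.7% for anti-ER, so the anti-CEBPA position differed between the lines more than the anti-ER position. The best-ranked anti-CEBPA sites were −43653 bp in p42 cells (13.0%, found in all 4 lists) and −48257 bp in p30 cells (44.5%), neither within H3K27ac. The intronic site at +5166 bp (17.0% in p42 and 48.7% in p30) had no H3K27ac either. The −9788 bp site is shown with 100 bases on either side (chr11:44280920-44281120) because CEBP, CEBP:ATF4 and NF-kB motifs (in that order, in capitals) all fell within it, and the +5166 bp site (chr11:44295934-44296014) with its CEBP motif, both on the plus strand.
Il12b −9788: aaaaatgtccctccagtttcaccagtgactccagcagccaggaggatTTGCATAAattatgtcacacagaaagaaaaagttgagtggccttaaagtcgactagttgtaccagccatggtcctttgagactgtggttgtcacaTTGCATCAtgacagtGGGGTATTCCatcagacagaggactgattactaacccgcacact
Il12b +5166: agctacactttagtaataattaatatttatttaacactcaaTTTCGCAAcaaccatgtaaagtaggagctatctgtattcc

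**Figure D4:**
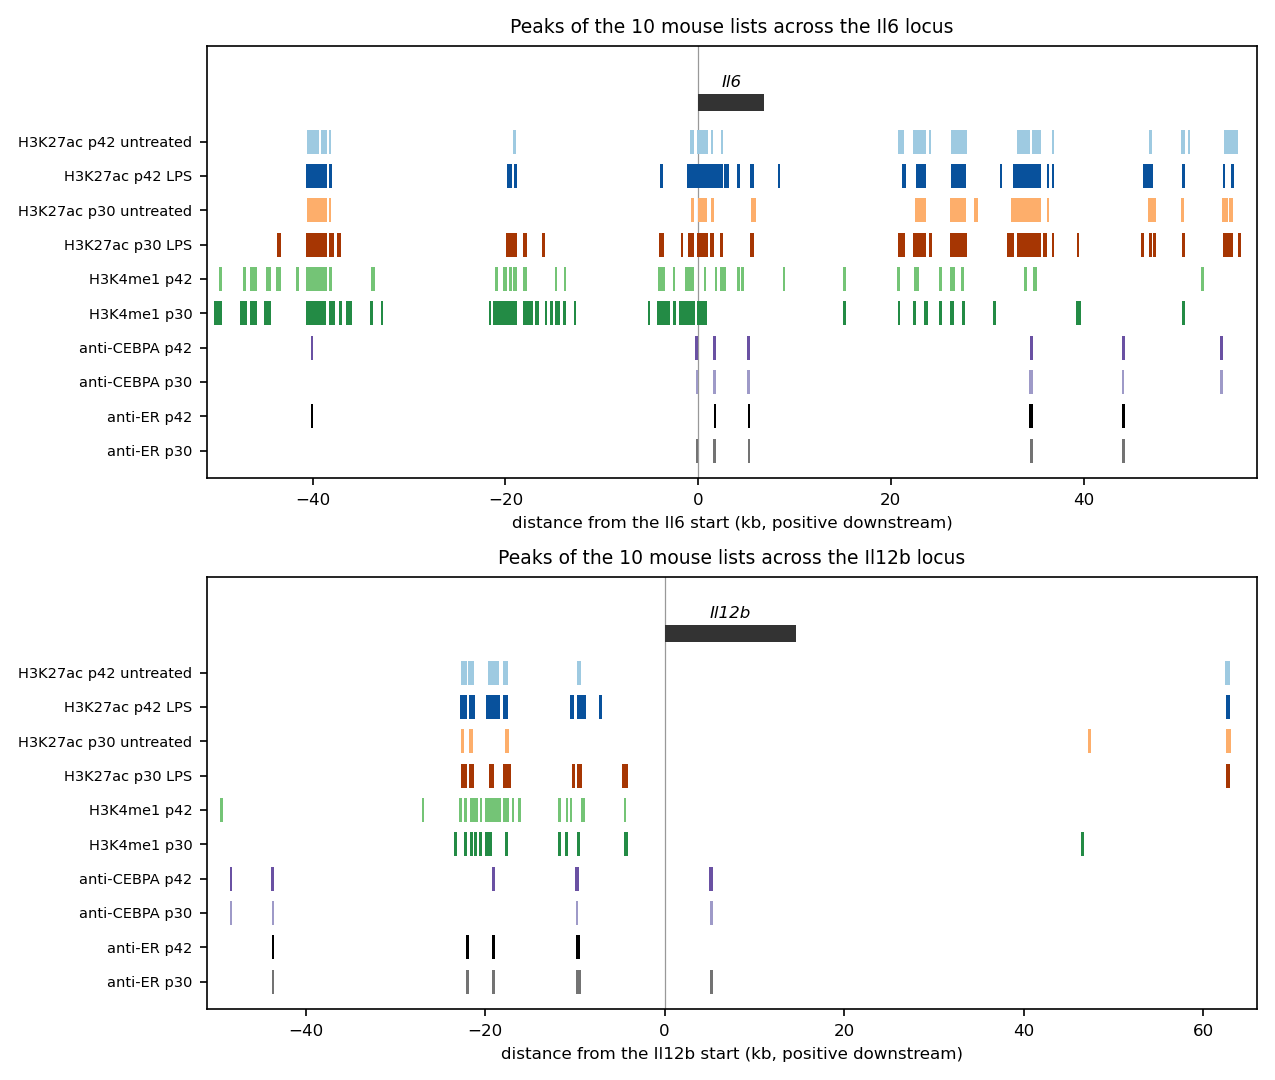
Peaks of the 10 mouse lists (rows) across the Il6 locus (top) and the Il12b locus (bottom), by distance from the gene start in kb (horizontal axis, positive downstream), with each box 1 peak (narrow peaks widened to stay visible) and gray boxes for the genes. The Il6 promoter peak is 3698 bp wide in p42 cells with LPS, and at Il12b the H3K27ac region at −9603 bp is missing from the untreated p30 row.

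*Il10* (chr1:130947581-130952711, plus strand) was the only locus of the 10 with no anti-CEBPA site in p30 cells. It had 3 anti-CEBPA sites in p42 cells and none in p30 cells, and 5 and 4 sites with anti-ER. The absence concerned 1 library, since anti-ER found p30 fusion protein at +18542 bp (26.3%) and +29530 bp (48.2%). At +53783 bp, in an intron of *Mapkapk2*, a site was found with both antibodies in p42 cells and with neither in p30 cells. H3K27ac covered 23467 bp in untreated p42 cells and 27139 bp with LPS, and 22461 and 26567 bp in p30 cells, most strongly near *Mapkapk2*. A region at +26185 bp was gained in both lines (47.1% in p42 and 39.1% in p30). The promoter peak in p30 cells with LPS was among the weakest of its list (99.4%). The +18542 bp site is shown on the plus strand (chr1:130966083-130966163), with its CEBP motif in capitals, because it was the best-ranked p30 site of the locus.
Il10 +18542: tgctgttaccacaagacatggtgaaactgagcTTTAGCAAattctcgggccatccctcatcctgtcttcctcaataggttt

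At *Csf1* (chr3:107648364-107667806, minus strand) the promoter peak went from 11.5% to 16.5% of the list with LPS in p42 cells and from 17.3% to 14.1% in p30 cells. The strongest region closest to *Csf1*, at −36482 bp, was in all 4 lists (9.47% and 10.7% in p42, 8.56% and 7.18% in p30). In p42 cells 6 regions of the locus were lost with LPS and 1 was gained, at −31192 bp (93.7%), whereas p30 cells lost 2 and gained 8, led by −12688 bp (52.2%). The best-ranked CEBPA site, −27815 bp, stood at 5.6% (p42) and 9.89% (p30) of the anti-CEBPA lists and at 8.95% and 9.07% of the anti-ER lists. Its summit lay in an H3K4me1 peak of p42 cells but in no H3K27ac peak. The edges of the site overlapped H3K27ac regions of p42 cells at −27340 bp (both states) and −28107 bp (untreated only), both absent in p30 cells.

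At *Csf3* (chr11:98592089-98594458, plus strand) the promoter had a peak in p42 cells with LPS (48.4%) but not untreated, and in p30 cells both untreated (64.1%) and with LPS (52.2%). The merged region over the start did hold a peak of untreated p42 cells (67.7%), which lay outside the promoter window. The best-ranked gained regions were nearest to neighbors, −15919 bp (*Psmd3*, 69.1%) in p42 cells and −40819 bp (*Gsdma*, 33.3%) in p30 cells. The best-ranked anti-CEBPA site of both lines lay downstream at +7496 bp, in an intron of *Med24*. Its anti-CEBPA ranks were 2214 in p42 and 2844 in p30 cells, its anti-ER ranks 3740 and 5034, and it was covered by H3K27ac in all 4 lists. Its sequence (chr11:98599545-98599625, plus strand) held none of the 6 motifs searched, in contrast to the *Csf1* site (chr3:107695581-107695661, minus strand), whose CEBP motif is in capitals. The pair is shown to set strong sites with and without the exact letters searched (TTGCNNAA) side by side. Looser forms of a CEBP motif were not searched, so the *Csf3* sequence may hold one.
Csf3 +7496: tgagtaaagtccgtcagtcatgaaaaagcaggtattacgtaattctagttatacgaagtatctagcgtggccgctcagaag
Csf1 −27815: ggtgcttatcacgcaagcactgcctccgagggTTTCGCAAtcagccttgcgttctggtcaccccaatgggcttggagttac

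*Ptgs2* (chr1:149975194-149983978, plus strand) had the best-ranked CEBPA site of all 10 loci in both anti-CEBPA lists. The site at +519 bp ranked 1396 of 47517 in p42 cells and 875 of 31851 in p30 cells with anti-CEBPA. Its anti-ER ranks were 3705 and 1645. It fell in an untranslated part of an exon and inside the promoter's H3K27ac peak in all 4 lists. The peak was at 6.83% untreated and 9.53% with LPS in p42 cells, and at 9.66% and 9.7% in p30 cells, so it did not move up the list in either line. A region at +1718 bp was gained in both lines (38.9% in p42 and 63.2% in p30). Sites at +7375 and +16085 bp were found with both antibodies in p42 cells and neither in p30 cells, and both summits lay in H3K27ac peaks of p42 cells with LPS only. The region over +16085 bp also had a weak peak in untreated p42 cells (95.8%, against 56.5% with LPS). The 30 bases around the CEBP motif at +519 bp (capitals, chr1:149975702-149975731, plus strand) hold the full palindrome.
Ptgs2 +519: cgctgcggttcTTGCGCAActcactgaagc

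Taking 1000 bp upstream to 100 bp downstream of the start as the promoter, 5 of 10 genes had promoter H3K27ac in untreated p42 cells (46.3% of all protein-coding genes) and 6 with LPS (45.6%). In p30 cells 5 had it untreated (45.8%) and 8 with LPS (47.2%). The lines did not differ with LPS under other settings. Each had 6 with q-values under 1e-05 or equal numbers of peaks, and 8 with windows of 2500 bp either side. *Tnf*, *Il6*, *Csf1* and *Ptgs2* had it in all 4 lists, and *Il1a* and *Il12b* in none. The untreated p42 peak counted at *Il1b* had its summit at −1053 bp and belonged to a separate region from the LPS peak at −229 bp. Of the promoter peaks present in both states, 2 of 5 stood higher in the list with LPS in p42 cells (*Il1b* and *Il6*) and 4 of 5 in p30 cells (*Tnf*, *Il6*, *Csf1* and *Csf3*). Ranked by fold in place of p-value, *Tnf* stood lower with LPS in p30 cells, at 2.15% against 1.3%, which left 3 of 5.

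**Figure D5:**
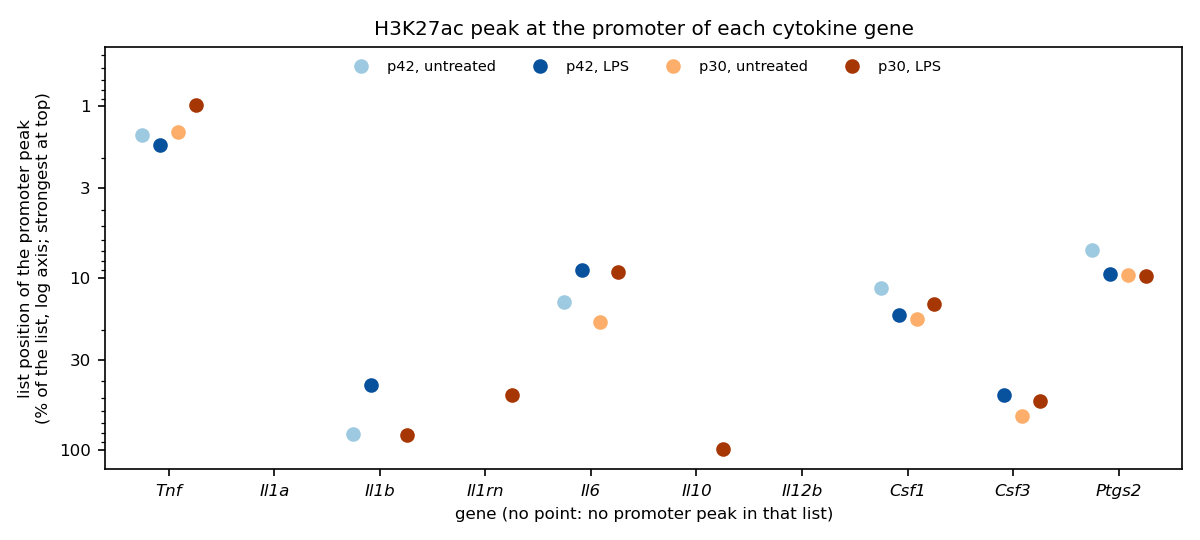
List position of the H3K27ac peak at each promoter (vertical axis, percent of the list on a log scale, strongest at top) for the 10 cytokine genes in the 4 pooled lists, with no point where a list had no promoter peak. Tnf lies within the strongest 1.67% in all 4 lists, and Il6 moves from 13.8% to 9.02% in p42 cells and from 18.0% to 9.23% in p30 cells.

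H3K4me1 was dense over these loci in untreated cells. The p42 list held 269 peaks and the p30 list 278, and the median locus was covered over 11.6% and 17.0% of its length, whereas the median over all protein-coding loci was 2.38% and 3.37%. Promoter H3K4me1 was found at 7 of 10 genes in p42 cells, against 16.4% of all genes, and at the same 7 in p30 cells, against 21.9%. These were *Tnf*, *Il1a*, *Il1b*, *Il6*, *Il10*, *Csf3* and *Ptgs2*. At *Il6* the strongest H3K4me1 peak lay at −38894 bp in p42 cells (rank 5026) and at −38901 bp in p30 cells (rank 872 of 168035). The *Il1b* locus went the other way, with 15 peaks over 6430 bp in p42 cells and 8 over 3402 bp in p30 cells, as did *Il12b* (6511 and 3661 bp). Of the 56 H3K27ac regions gained with LPS in p30 cells, 34 (60.7%) already had H3K4me1 in untreated p30 cells, whereas 35.0% of all regions gained in p30 cells did. In p42 cells 13 of 38 (34.2%) had it, against 28.0%, and of the 14 gained in both lines 7 (50.0%) had it in each line, against 30.9% in p42 and 39.3% in p30 cells.

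CEBPA sites were found in all 10 loci. At least 1 anti-CEBPA site lay in 10 of 10 loci in p42 cells (86.7% of all protein-coding loci) and in 9 in p30 cells (79.6%), and at least 1 anti-ER site in 10 in p42 cells (70.5%) and in 10 in p30 cells (79.6%). A site present in all 4 lists lay in 9 loci, against 56.7%. Promoter sites with anti-CEBPA were found at *Tnf*, *Il1b* and *Il6* in both p42 cells (5.91% of all genes) and p30 cells (5.65%). With anti-ER, *Il1b* had a promoter site in p42 cells (5.14%), and *Il1b*, *Il6* and *Csf3* in p30 cells (8.63%). Merging the 4 lists gave 70 sites in the 10 loci. Of these, 25 (35.7%) were in all 4 lists and 9 (12.9%) in 1 list only, compared with 20.9% and 42.6% of the 63759 merged sites of the genome. With anti-CEBPA, 34 sites were found in both lines, 18 in p42 cells only and 2 in p30 cells only, and with anti-ER 44, 6 and 9. Of the anti-CEBPA sites of p42 cells 65.4% were shared with p30 cells, against 55.2% over all sites of the genome. Of those of p30 cells 94.4% were shared, against 82.5%. With anti-ER these shares were 88.0% against 84.0% for p42 cells and 83.0% against 57.0% for p30 cells. The anti-CEBPA list of p42 cells was the longer of that pair (47517 against 31851 peaks), and the anti-ER list of p42 cells the shorter (23248 against 34006).

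LPS-treated p42 cells carried H3K27ac at more of these CEBPA sites than untreated p42 cells. The summit lay in H3K27ac at 28 of 70 sites (40%) untreated and 36 (51.4%) with LPS in p42 cells, and at 27 (38.6%) and 28 (40%) in p30 cells. Over all CEBPA sites of the genome the shares were 25.4% and 23.8% in p42 cells and 23.3% and 23.9% in p30 cells. Among the 25 sites in all 4 lists, p42 cells went from 13 to 17, and p30 cells had 12 in both states. Only the summit base was counted, and no other rule was run. At *Il1a* −4898 and −5799 bp, *Il1b* −86 bp and *Il12b* −9788 bp the summit lay in H3K27ac in p42 cells with LPS alone. At each of these sites p30 cells with LPS had a peak of the same H3K27ac region that did not cover the summit. No CEBPA library was labeled as LPS-treated, so whether CEBPA sites moved with LPS was not measured.

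The CEBP motif (TTGCNNAA) lay within 100 bp of the summit at 34 of the 70 sites (48.6%, against 46.1% of all CEBPA sites) and at 16 of the 25 sites in all 4 lists (64.0%, against 61.1%). The other motifs searched were AP-1 (TGANTCA), at 5 sites (7.14%, against 7.85%), CEBP:ATF4 (TGATGCAA), at 6 (8.57%, against 8.98%), PU.1 (GAGGAAGT), at 3 (4.29%, against 3.29%), CRE (TGACGTCA), at 1 (1.43%, against 0.276%), and NF-kB, at 4 (5.71%, against 2.39%). The NF-kB motifs were at *Il6* −133 bp, *Il12b* −9788 and −19046 bp and *Csf3* −979 bp. Motifs were read on both strands, a CEBP match can overlap others, and a match is a description of letters and not a bound site.

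Of 23 other cytokine genes and related enzymes, 13 had promoter H3K27ac in untreated p42 cells, 14 with LPS, 12 in untreated p30 cells and 13 with LPS. Covered sequence was larger with LPS at 6 of the 23 loci in p42 cells and at 13 in p30 cells, and a region gained in both lines lay at 11. Loci without untreated H3K27ac, such as *Csf2* in p42 cells, had no ratio and were not counted as larger. The 3 with the best rank of a promoter peak in an LPS list were *Ltb* (0.466% in p42 and 0.477% in p30), *Tgfb1* (1.63% and 0.963%) and *Lta*, the first and last of which lie in the *Tnf* locus. Of 15 receptor genes for these and related mediators, 11 had promoter H3K27ac in untreated p42 cells, 10 with LPS, 11 in untreated p30 cells and 12 with LPS. *Tnfrsf1b*, a TNF receptor gene, was the only gene of either list whose promoter peak appeared with LPS in both lines (69.1% in p42 and 44.4% in p30). Covered sequence at the receptor loci was larger with LPS at 5 in p42 cells and 9 in p30 cells, with median ratios of 0.873 and 1.03.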

How the data were processed

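According to the study's methods, reads were trimmed (Trim Galore 0.6.6 in the submitters' processing notes), aligned to mm39 with Bowtie2, stripped of Picard duplicates, and called as narrow peaks with MACS2 against input. The deposited lists give, per peak, a fold enrichment over local background (a ratio) and the −log10 of p- and q-values. The authors' fold and −log10 values served only to rank, filter or describe peaks within a list. The anti-CEBPA lists lack the mark of the calling setting that the other lists carry, so settings possibly differed. Library depth is not given by the lists, and 1 pooled list per group leaves no replicate spread.

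Peaks on chromosomes 1 to 19, X and Y were used with GENCODE genes and GRCm39 sequence (Python 3.11.15, pandas 2.3.3). Overlap meant at least 1 bp. Sites of each locus were named by best rank per line, LPS gain, or both antibodies in 1 line and neither in the other, and others when a comparison turned on them. Other cytokine and receptor genes were named when a promoter peak was gained or lost with LPS in both lines, plus the 3 best ranked with LPS. Members, gene lists and motifs were chosen with earlier results of these data known. Sensitivity settings were q-values under 1e-05, 10 kb flanks, equal numbers of peaks, other promoter and motif windows, and other overlap and rank rules. Functions were tested on simulated peaks. The human ATF4 list was not used here.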

Additional observations from a re-analysis of the deposited data

Results flagged for a closer look

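At 5 genes at least 1 of the measures compared went in opposite directions with LPS in the lines, and none of these differences was tested because each condition has 1 pooled list. At *Csf1*, H3K27ac peaks went from 20 to 13 in p42 cells and from 10 to 17 in p30 cells, the covered sequence ratio was 0.968 and 1.31, and the promoter list position went from 11.5% to 16.5% and from 17.3% to 14.1%. With the same number of strongest peaks the covered ratio at *Csf1* was above 1 in both lines (1.15 and 1.22), as it was with q-values under 1e-05 (1.22 and 1.22). At *Csf3*, peaks went from 30 to 25 and from 31 to 33, with ratios of 0.902 and 1.03, and with flanks of 10 kb both ratios were under 1 (0.825 and 0.937). At *Il1rn* the ratios were 0.923 and 1.21, whereas its peaks increased in both lines (15 to 20 and 14 to 19), and with flanks of 10 kb its p42 ratio was 1.6 and p30 cells had H3K27ac there only with LPS. At *Ptgs2*, peaks went from 4 to 6 in p42 cells and from 6 to 4 in p30 cells, whereas covered sequence was larger with LPS in both (1.46 and 1.09). The *Tnf* promoter position went from 1.46% to 1.67% in p42 cells and from 1.4% to 0.985% in p30 cells. Its rank moved up in both lines (1885 to 1786 and 1950 to 1403), the p42 list being shorter with LPS (107141 against 129369 peaks), and its position by fold moved down in both (2.13% to 2.44% and 1.3% to 2.15%), so the opposite direction at *Tnf* held for the position by p-value alone.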

How the results depend on the processing

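No paired analysis was possible because each group has 1 list, called on pooled samples or on 1 library, so no replicate could be left out and no test was made. Of 71 values recomputed under other settings, 56 stayed within 1.5 times the reported one, including the counts of loci with more H3K27ac with LPS under every setting run for them (8 in p42 cells and 8 in both lines under each, the added locus being *Csf1*, or *Il1rn* with flanks of 10 kb). The other 15 were lower. With flanks of 10 kb, which hold less sequence, regions gained with LPS fell to 20 in p42 cells, 22 in p30 cells and 7 in both. H3K4me1 peaks fell to 79 in p42 and 73 in p30 cells, anti-CEBPA peaks to 24 and 16, and anti-ER peaks to 21 and 25. Sites shared by the lines then numbered 16 with anti-CEBPA and 19 with anti-ER. H3K4me1 peaks with q-values under 1e-05 numbered 159 in p42 and 163 in p30 cells. With motifs sought within 50 bp of the summit, AP-1 and NF-kB were each found at 2 sites. Counting every coding transcript start as a promoter was chosen after seeing the data and moved no promoter count past 1.5 times. The higher promoter count of p30 than p42 cells with LPS was not kept under stricter q-values, equal numbers of peaks or 2500 bp windows. Depth is not known from the lists, and a peak missing from a list is one not called at its depth, not an absent mark.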
